A study of Mus musculus with 85 samples.

Results

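MOF, a histone acetyltransferase encoded by Kat8, acetylates histone H4 as the enzyme of the NSL complex, and KANSL2 and KANSL3 are among its scaffold subunits. MOF also works in a separate assembly, the MSL complex, whereas KANSL2 is known as a subunit of the NSL complex only. In dividing cells the NSL complex is known to sit at the promoters of widely expressed genes, many of them for mitochondrial and ciliary proteins. Loss of a chromatin regulator in neural progenitors commonly comes with activity of p53, the DNA damage and stress sensor, and of ATF4, the transcription factor of the integrated stress response. The question asked here was how neural cells labelled as knockouts of the enzyme differ from neural cells labelled as knockouts of the scaffold.

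A total of 6 neural RNA libraries were set against each other, 3 from Mof nKO and 3 from Kansl2 nKO embryos, of 85 samples in the series, 64 of them RNA libraries. They are M643, M646 and M689 for Mof and K2_345, K2_348 and K2_351 for Kansl2, chosen by their labels alone. Per the labels, nKO stands for a knockout driven by Nestin Cre, a transgene active in neural progenitors and their descendants, and all cells came from the mouse brain at E14.5 by cell sorting. The 3 Cre controls (Cre183, Cre184, Cre188) served both knockouts and are given as the common reference. The sources give no strain, sex, litter or gate for neural cells. Nothing beyond the library names says that each came from its own animal, and if they did not, p-values measure only the spread between these samples.

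The libraries held 5687012 reads (K2_348) to 12665665 reads (K2_351) assigned to genes. A single ribosomal RNA locus, Rn18s-rs5, took 10.2% (K2_351) to 39.3% (M646) of them. No duplicate was found among pairs of libraries of the same group. Reads of Xist, expressed by cells with a pair of X chromosomes, numbered 4167 in K2_345 and 2689 in K2_348 and at most 3 in the other 4 knockout libraries, while reads of Y-linked genes were present in M643, M646, M689 and K2_351 and at 0 in K2_345 and K2_348. These reads moved in part with genotype, and every gene was also fitted with a term for Xist and with the Y-positive libraries alone (3 Mof, K2_351 and 2 controls). In the latter fit K2_351 is the lone Kansl2-labelled library and is assumed to vary like the other groups. Among the Cre controls, Cre183 held the Xist reads. The neural label was checked against markers: none of 20 markers of postmitotic neurons was at 0 throughout, and together they took 0.753% to 0.818% of reads outside Rn18s-rs5 in the knockout libraries. Of 13 microglial markers 4 were at 0 in all 6 knockout libraries and no marker exceeded 54 reads. Of 12 endothelial markers 1 was at 0 throughout and none exceeded 34 reads. Other lists reached higher. None of 10 erythroid markers was at 0 throughout and the highest reached 6757 reads. Together they took 0.0750% to 0.140% of reads outside Rn18s-rs5 in the knockout libraries. Of 11 pericyte markers none was at 0 throughout and the highest reached 1071 reads.

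Kat8 was the first gene examined, since it checks the Mof label. It lies on chr7:127912517-127925838, with Kansl2 on chr15:98517658-98534770 and Kansl3 on chr1:36335730-36369193 (RefSeq, GRCm38.p6). Its normalized reads were 260, 232 and 249 in the Cre libraries, 81.4, 97.3 and 94.5 in the Mof libraries and 187, 164 and 151 in the Kansl2-labelled libraries. All 3 Mof values lay below all 3 Kansl2-labelled values, and those lay below all 3 controls. The Mof minus Kansl2 difference was -0.87 ± 0.12 on the log2(normalized reads + 1) scale (± SE, n = 3 per group, limma adjusted p = 0.000483), the scale of every difference below. A positive difference means higher in Mof nKO.

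Kansl2 itself did not pass as lower in the libraries named for it. Its values were 388, 350.6 and 355 in Cre, 440, 431 and 426 in Mof and 364, 371 and 433 in the Kansl2-labelled libraries. The groups overlapped and the difference was 0.15 ± 0.09 (adjusted p = 0.286). Reads summed over a gene need not fall when part of it is deleted, so the group is called Kansl2-labelled throughout. Kansl3, the other scaffold subunit targeted in the series, stood at 472 to 605 in Mof and 570 to 594 in the Kansl2-labelled libraries (-0.14 ± 0.09, adjusted p = 0.331). Of 9 NSL complex genes tested Kat8 alone differed, where 9.84% of all genes tested passed, and it did so in each of the 6 fits that left out a library. Members are counted here and below if their mean reached 10 normalized reads. Of 8 genes of the MSL complex and related MYST acetyltransferases, Msl3, the chromodomain subunit of the MSL complex, was higher in Mof (252, 230 and 224 against 181, 196 and 158; 0.40 ± 0.11, adjusted p = 0.025). Msl3 did not pass without M643 (0.35), M646 (0.42) or K2_351 (0.32), nor with the Xist term (0.47).

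**Figure D1:**
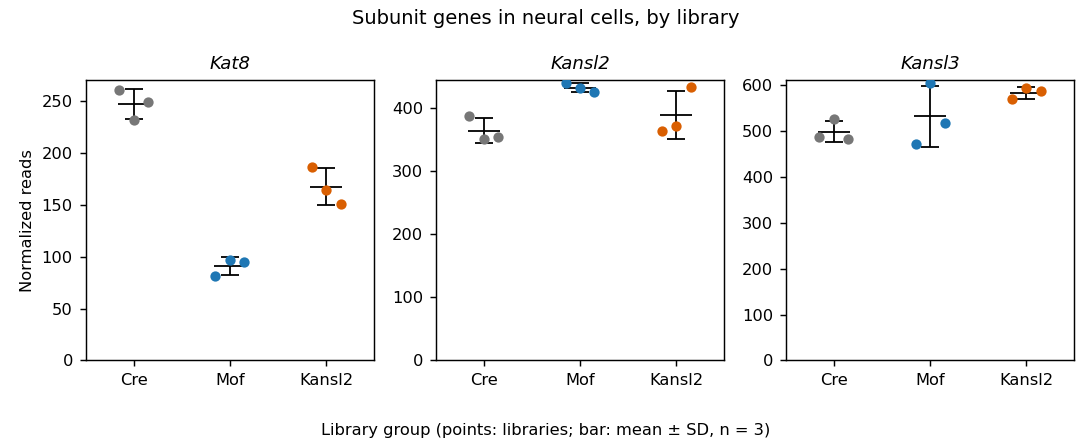
Normalized reads of Kat8, Kansl2 and Kansl3 in each neural library (points) with the group mean and SD (n = 3). Kat8 sits at 81.4 to 97.3 in Mof, 151 to 187 in Kansl2-labelled and 232 to 260 in Cre libraries, while Kansl2 and Kansl3 overlap between the Mof and Kansl2-labelled libraries.

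Across the transcriptome Mof and Kansl2-labelled libraries differed at 1346 of 13682 genes tested, 9.84% of them. Of these, 804 (5.88% of the tested genes) were higher in Mof and 542 (3.96%) were higher in the Kansl2-labelled libraries. At 26.2% of all genes tested, passed or not, the Mof and Kansl2-labelled values did not overlap. Most differences were modest, with a median absolute size of 0.47 among the genes that passed. In 51 genes that were higher in Mof and 37 that were higher in the Kansl2-labelled libraries the difference exceeded 1. Against the shared Cre controls, 16% of genes were higher and 14.5% lower in Mof, and 21.7% were higher and 21.9% lower in the Kansl2-labelled libraries. When every library was scaled to all its reads, Rn18s-rs5 included, 36 genes were higher in Mof and 65 in the Kansl2-labelled libraries. With a term for Xist 440 genes differed, and with the Y-positive libraries alone 914, of which 546 had passed in the fit of all 9 libraries in the same direction.

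Some genes of the p53 response were higher in the Kansl2-labelled libraries, and most did not pass. p53 acts by raising genes that stop the cell cycle, such as Cdkn1a, feedback genes, such as Ccng1, and genes that open the path to apoptosis, such as Apaf1. Of 21 tested targets of arrest and feedback 5 were higher in the Kansl2-labelled libraries and 1 in Mof, with a median difference of -0.11 (0.01 over all genes, of which 3.96% and 5.88% passed in these directions). Of 12 tested targets of cell death 2 were higher in the Kansl2-labelled libraries and none in Mof, with a median of -0.20. None of the death targets passed with the Xist term, in the Y-positive libraries or with library totals (medians of -0.35, -0.30 and -0.28), while 3, 4 and 4 targets of arrest and feedback did, all higher in the Kansl2-labelled libraries. Against Cre, 9 of the 12 death targets had passed as higher in Mof (16% of all genes) and 10 in the Kansl2-labelled libraries (21.7%). Those members lay on the same side of the controls in both knockouts.

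Cdkn1a, the p21 inhibitor of cyclin-dependent kinases, read 10.1, 15.5 and 18.5 in Cre, 31.9, 33.8 and 63.3 in Mof and 66.2, 99.7 and 98.5 in the Kansl2-labelled libraries. The 3 groups did not overlap, although M689 (63.3) came close to K2_345 (66.2). The difference was -1.06 ± 0.28 (adjusted p = 0.0211). It did not pass without M643 (-0.89), M646 (-0.93), K2_348 (-0.96) or K2_351 (-0.97). Ccng1, cyclin G1, read 291, 302 and 336 in Cre, 627, 619 and 755 in Mof and 1061, 1043 and 996 in the Kansl2-labelled libraries. Every Kansl2-labelled library stood above every Mof library (-0.64 ± 0.09, adjusted p = 0.000472).

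Sesn2, a sestrin that restrains mTORC1 and a target of both p53 and ATF4, read 91.4, 86.0 and 98.1 in Cre, 288, 297 and 355 in Mof and 537, 493 and 568 in the Kansl2-labelled libraries (-0.77 ± 0.11, adjusted p = 0.000472). Phlda3, an inhibitor of AKT signalling, read 32.4 to 39.7 in Cre, 97.3 to 155 in Mof and 206 to 213 in the Kansl2-labelled libraries (-0.78 ± 0.16, adjusted p = 0.00629). Apaf1, the scaffold of the apoptosome, read 763 to 785 in Mof against 906 to 1039 in the Kansl2-labelled libraries (-0.35 ± 0.07, adjusted p = 0.00646). These 3 genes passed whichever library was left out. Phlda3 and Apaf1 did not pass with the term for Xist (-0.71 and -0.30) or in the Y-positive libraries alone (-0.76 and -0.23), though both kept their direction. Eda2r, a death receptor of the TNF family, stood at 36.7 to 45.0 in Cre, 261 to 334 in Mof and 348.8 to 398 in the Kansl2-labelled libraries. Its difference was smaller, at -0.41 ± 0.13 (adjusted p = 0.0471), and did not pass without M643 (-0.34), M646 (-0.35), K2_345 (-0.36), K2_348 (-0.46) or K2_351 (-0.38), nor with the Xist term (-0.36) or in the Y-positive libraries (-0.45). The member that was higher in Mof was Ccng2, cyclin G2, a FOXO-responsive relative of Ccng1 (0.24 ± 0.07, adjusted p = 0.0339), which did not pass without M643 (0.23), M646 (0.22), K2_348 (0.21) or K2_351 (0.22), nor with the Xist term (0.25) or in the Y-positive libraries (0.28).

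Part of the integrated stress response was likewise higher in the Kansl2-labelled libraries. In this pathway the translation factor eIF2 is phosphorylated and ATF4 is made, and ATF4 with its partners raises genes for amino acid uptake and synthesis. Of 24 tested members 7 were higher in the Kansl2-labelled libraries (3.96% of all genes) and 1 in Mof (5.88%), with a median difference of -0.21. Sesn2 is on both this list and that of p53 targets of arrest and feedback, and is counted in both. Leaving out a library gave 4 to 8 members higher in the Kansl2-labelled libraries, and library totals gave 3. Against Cre, 18 members had passed as higher in Mof (16% of all genes) and 21 in the Kansl2-labelled libraries (21.7%).

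Atf3, a stress-induced partner of ATF4, separated the Mof from the Kansl2-labelled libraries. It read 79.3, 74.4 and 73.4 in Cre, 90.2, 100.1 and 76.8 in Mof and 166, 185 and 183.8 in the Kansl2-labelled libraries. The Mof values came near the controls while the Kansl2-labelled values lay well above both (-0.997 ± 0.14, adjusted p = 0.000472). Asns, asparagine synthetase, read 140.5, 127 and 143 in Cre, 306, 262 and 348.9 in Mof and 485, 439 and 477 in the Kansl2-labelled libraries (-0.62 ± 0.11, adjusted p = 0.00229). Slc7a11, the cystine importer, read 21.6 to 37.7 in Cre, 45.1 to 67.7 in Mof and 110 to 164 in the Kansl2-labelled libraries (-1.15 ± 0.23, adjusted p = 0.00417; -0.91 with the Xist term and -0.95 in the Y-positive libraries, where it did not pass). All 3 genes stood highest in the Kansl2-labelled libraries, with no overlap between the knockouts, which held for 26.2% of all genes tested. For genes named as largest differences, Atf3 among them, no overlap was a condition of being named.

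A pair of genes that ATF4 is known to raise, outside the list, were among the 12 largest differences towards the Kansl2-labelled libraries, counted over genes that passed, did not overlap and had a mean of at least 50, without predicted and unnamed genes and the 6 of the list of sex-linked genes. Slc7a3, a cationic amino acid transporter, read 6.05, 12.6 and 7.72 in Cre, 36.3, 31.0 and 40.5 in Mof and 80.6, 81.2 and 79.6 in the Kansl2-labelled libraries (-1.15 ± 0.26, adjusted p = 0.00889; -1.14, not passed, in the Y-positive libraries). Eif4ebp1, the 4E-BP1 repressor of cap-dependent translation, read 14.1 to 16.4 in Cre, 24.0 to 49.8 in Mof and 62.9 to 85.9 in the Kansl2-labelled libraries (-1.09 ± 0.25, adjusted p = 0.0115). Eif4ebp1 did not pass without M646 (-0.84). Psat1, of serine synthesis, was also higher in the Kansl2-labelled libraries (1277 to 1403 against 1027 to 1152; -0.32 ± 0.07, adjusted p = 0.00964), and did not pass without M643 (-0.30) or with the Xist term (-0.31). Cebpg, a C/EBP partner of ATF4, was the member that was higher in Mof (0.23 ± 0.07, adjusted p = 0.0416), and it did not pass without M643 (0.22), M646 (0.21), K2_345 (0.25) or K2_348 (0.20), nor with the Xist term (0.19) or in the Y-positive libraries (0.19). The message of Atf4 itself did not differ detectably. It read 2086 to 2143 in Cre, 2803 to 3280 in Mof and 2931 to 3185 in the Kansl2-labelled libraries, with overlapping groups (0.00 ± 0.07, adjusted p = 0.979).

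The sequence that ATF4 and C/EBP dimers are known to bind as a composite, TGATGNAA, was searched on both strands in RefSeq promoter windows (GRCm38.p6, from 250 bases before to 50 after the start site). It was present in 2.52% of the windows of 9606 tested protein-coding genes. Of 22 integrated stress response genes with a window 6 held it. Of those 6, Atf3, Asns, Slc7a11 and Vldlr (-0.28) were higher in the Kansl2-labelled libraries, while Pycr1 (0.13, adjusted p = 0.687) and Chac1 (-0.14, adjusted p = 0.728) did not pass. Of the 16 without it 2 were higher in the Kansl2-labelled libraries. Over all 242 tested genes with the sequence, 8.68% were higher in the Kansl2-labelled libraries and 9.92% in Mof, against 4.23% and 6.33% of the 9606. The median difference of the 242 was -0.04, against 0.01 over the 9606. The stretches of Atf3, Asns and Slc7a11 are shown because their values are given above, so they were chosen after the values were seen. Capitals mark each match, which is written as TGATGNAA or, where it lies on the other strand, as its reverse complement, and each stretch ends before the start site.
Atf3, chr1:191183396-191183483, minus strand: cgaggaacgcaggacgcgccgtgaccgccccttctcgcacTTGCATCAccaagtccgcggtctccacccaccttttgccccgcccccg
Asns, chr6:7693210-7693272, minus strand: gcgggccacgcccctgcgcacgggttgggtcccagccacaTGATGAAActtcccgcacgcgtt
Slc7a11, chr3:50443614-50443700, minus strand: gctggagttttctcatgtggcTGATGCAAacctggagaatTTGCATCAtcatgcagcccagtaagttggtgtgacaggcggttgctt
The match lies 102 bases before the start site in Atf3 and 15 in Asns, and the matches of Slc7a11 lie 58 and 39 bases before it. They describe these letters only, and no binding was measured.

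A few chaperones of the endoplasmic reticulum were higher in the Kansl2-labelled libraries as well. Of 20 tested genes of the unfolded protein response 4 were higher there (3.96% of all genes) and none in Mof, with a median of -0.13. Pdia4, a protein disulfide isomerase, read 993 to 1036 in Cre, 967, 1101 and 1127 in Mof and 1331, 1367 and 1369 in the Kansl2-labelled libraries. The Mof values straddled the controls and the Kansl2-labelled values lay above them (-0.35 ± 0.07, adjusted p = 0.00433). Against Cre the Mof difference of Pdia4 was 0.06 (adjusted p = 0.525) and the Kansl2-labelled one 0.41 (adjusted p = 0.000116). The other 3 were Hsp90b1 (-0.27), Dnajc3 (-0.33) and Pdia3 (-0.31), members of the same folding machinery. Only 1 member passed without M643, M646, K2_348 or K2_351, and Pdia4 passed in each of those fits. None passed with library totals.

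**Figure D2:**
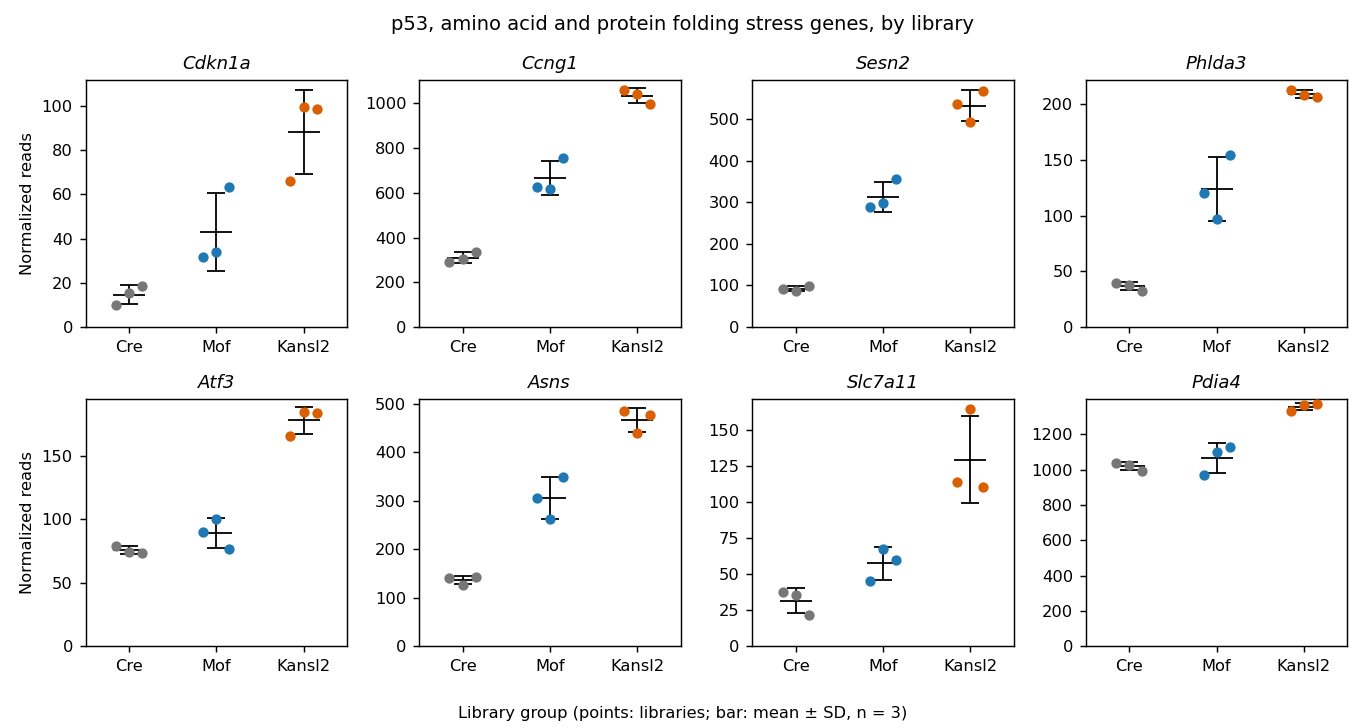
Normalized reads of 8 stress genes in each neural library (points) with mean and SD (n = 3); the upper row holds p53 targets and the lower row Atf3, Asns, Slc7a11 and Pdia4. In all 8 the Kansl2-labelled libraries lie above the Mof libraries, and Atf3 and Pdia4 in Mof (76.8 to 100.1 and 967 to 1127) lie near the Cre values.

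In the opposite direction, nuclear genes of mitochondrial protein synthesis lay mostly above 0. These genes encode the mitochondrial ribosome, which translates the few messages of the mitochondrial genome. Of 76 tested mitochondrial ribosomal protein genes 7 were higher in Mof and none in the Kansl2-labelled libraries, beside 5.88% of all genes that passed in that direction. Of the 76, 63 lay above 0, and the median was 0.15 against 0.01 over all genes. Leaving out a library gave 3 to 7 members higher in Mof and medians of 0.13 to 0.18, and library totals gave 1 member and a median of 0.07. Against the shared controls the medians were -0.27 in Mof and -0.47 in the Kansl2-labelled libraries, so both knockouts lay below Cre.

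Mrpl11 showed the widest gap of the list. It read 393, 371 and 386 in Cre, 350.9, 337 and 301 in Mof and 198, 196 and 153 in the Kansl2-labelled libraries, with the Mof values near the controls (0.86 ± 0.11, adjusted p = 0.000285). Mrps17 read 571.5 to 605 in Cre, 466 to 537 in Mof and 290 to 375 in the Kansl2-labelled libraries (0.54 ± 0.09, adjusted p = 0.00229). Mrpl2 read 187 to 207 in Mof and 113 to 140 in the Kansl2-labelled libraries (0.62 ± 0.11, adjusted p = 0.00288). Mrps11 differed by 0.44 ± 0.12 (adjusted p = 0.0202) and did not pass without M643 (0.44) or M646 (0.41), nor with the Xist term (0.49). In each of these the order was Cre, then Mof, then the Kansl2-labelled libraries.

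Few genes of the respiratory chain passed. Of 36 complex I genes 2 were higher in Mof, beside 5.88% of all genes. One of them was Ndufv1, which carries the NADH-binding site. It read 832 to 879 in Cre, 653 to 712 in Mof and 432.2 to 522 in the Kansl2-labelled libraries (0.49 ± 0.08, adjusted p = 0.00144). None of the 39 nuclear genes of complexes II to V passed, with a median of -0.01. The 8 messages of the mitochondrial genome had a median of 0.05 and none passed. Cytosolic ribosomal protein genes gave 1 of 77 higher in Mof (5.88% of all genes), with a median of -0.03. Of 20 aminoacyl tRNA synthetases 3 were higher in Mof (5.88% of all genes), among them Qars for glutamine and Hars for histidine. Qars read 359 to 379 in Cre, 243 to 273 in Mof and 164 to 203.8 in the Kansl2-labelled libraries (0.49 ± 0.10, adjusted p = 0.00554). Its difference was 0.43 with the Xist term, not passed, and 0.34 in the Y-positive libraries. Hars differed by 0.33 ± 0.08 (adjusted p = 0.0142).

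Fatty acid oxidation, the breakdown of fatty acids in mitochondria and peroxisomes, held 2 of the larger differences but no common direction. Of 29 tested genes 2 were higher in Mof (5.88% of all genes) and 1 in the Kansl2-labelled libraries (3.96%). Acox3, a peroxisomal acyl-CoA oxidase of branched substrates, read 176, 155 and 164 in Cre, 116, 142.4 and 105 in Mof and 62.9, 49.8 and 57.8 in the Kansl2-labelled libraries (1.07 ± 0.15, adjusted p = 0.000472). Slc25a20, the carrier that moves acylcarnitines into mitochondria, read 195 to 209 in Cre, 82.5, 130 and 107 in Mof and 48.7 to 58.5 in the Kansl2-labelled libraries (0.94 ± 0.16, adjusted p = 0.00183). Both stood lowest in the Kansl2-labelled libraries and passed in every fit that left out a library.

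Genes of the primary cilium, the single antenna-like organelle through which progenitors read Hedgehog signals, also lay mostly above 0. Of 36 tested genes 3 were higher in Mof (beside 5.88% of all genes) and none in the Kansl2-labelled libraries, the median was 0.17, and 32 of the 36 lay above 0. Against Cre 27 had passed as lower in Mof (14.5% of all genes) and 30 in the Kansl2-labelled libraries (21.9%), with medians of -0.53 and -0.70. Bbs1, a subunit of the BBSome that carries cargo along the cilium, read 362, 359 and 358 in Cre, 199, 183.2 and 199 in Mof and 131, 148 and 140.8 in the Kansl2-labelled libraries. The 3 groups lay apart with little spread (0.47 ± 0.10, adjusted p = 0.00675). B9d1, of the transition zone at the base of the cilium, read 57.8 to 72.7 in Mof and 33.8 to 46.1 in the Kansl2-labelled libraries (0.64 ± 0.17, adjusted p = 0.0258), and did not pass without M643 (0.65), M689 (0.56) or K2_351 (0.51), nor with the Xist term (0.78). Over the fits that left out a library 1 to 5 cilium genes were higher in Mof, and none passed with library totals (median 0.09).

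**Figure D3:**
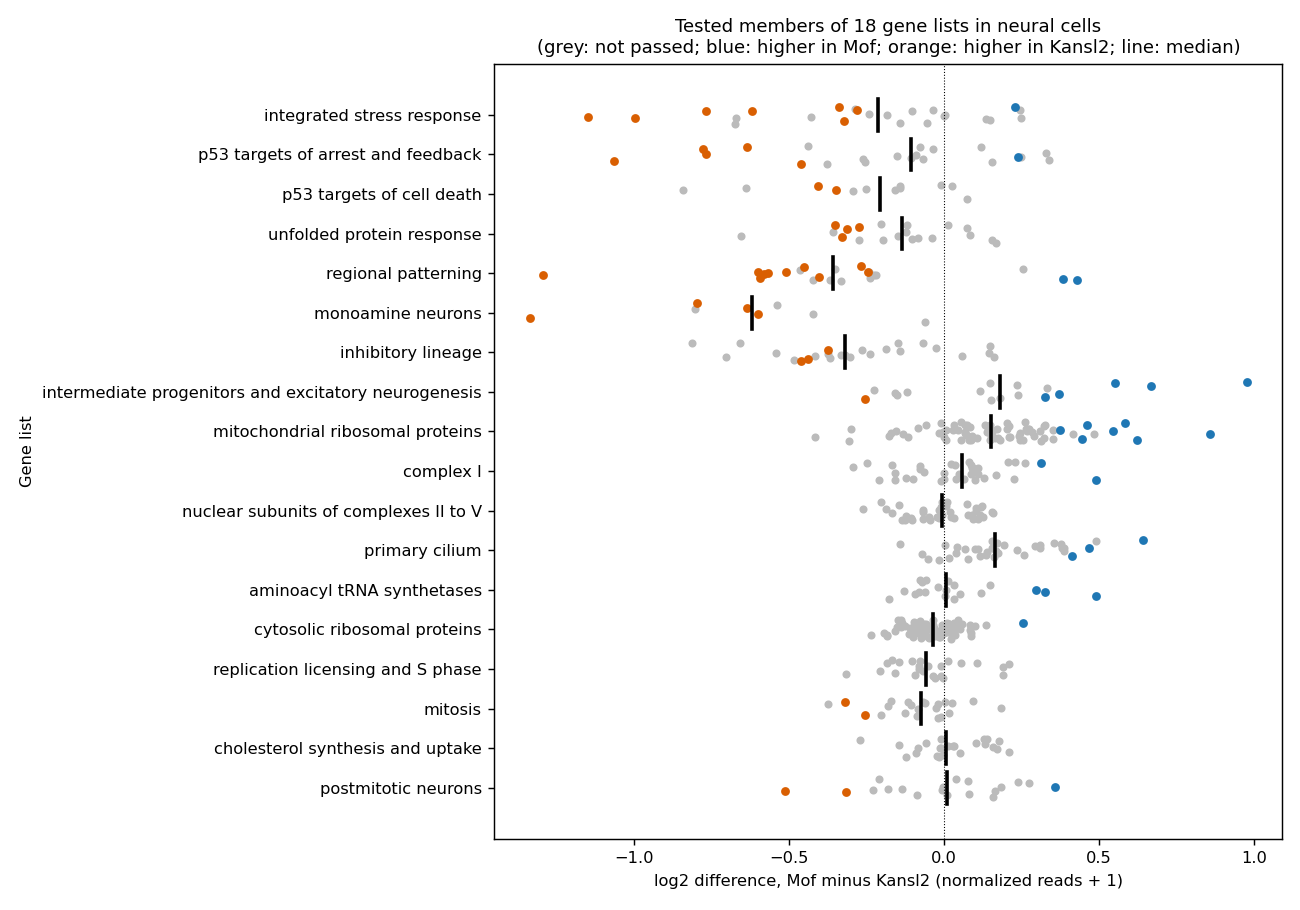
Each point is the log2 difference, Mof minus Kansl2, of 1 tested gene in 18 lists (blue higher in Mof, orange higher in Kansl2-labelled libraries, grey not passed), with the list's median as a line. Stress and regional lists lie to the left (medians of -0.21 and -0.36 for the integrated stress response and regional patterning), while mitochondrial ribosomal proteins and the primary cilium lie to the right (0.15 and 0.17).

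Genes that mark brain regions differed in both directions. Transcription factors such as OTX2, PAX5, EN2 and IRX2 pattern the midbrain, hindbrain and diencephalon, while EMX1 marks the telencephalon, from which the cortex forms. Of 22 tested genes of regional patterning 10 were higher in the Kansl2-labelled libraries (3.96% of all genes) and 2 in Mof (5.88%), with a median of -0.36. Those higher in the Kansl2-labelled libraries were Pax5, Otx2, En2, Irx2, Irx5, Pax3, Pax7, Barhl1, Lhx9 and Zic1, and Emx1 was among those higher in Mof. Leaving out a library gave 4 to 10 and 0 to 3. The Xist term gave 3 and none, the Y-positive libraries 5 and none, and library totals 1 and none. Cells were measured in bulk, so more cells of a region and more RNA per cell cannot be told apart.

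Pax5, of the midbrain-hindbrain boundary, showed the largest difference of this list towards the Kansl2-labelled libraries. It read 78.7, 57.9 and 44.0 in Cre, 39.6, 63.4 and 70.6 in Mof and 103, 231 and 114 in the Kansl2-labelled libraries. K2_348 stood far above the other 2 of its group, and all 3 stood above Mof and Cre (-1.29 ± 0.27, adjusted p = 0.00614; -0.94, not passed, with the Xist term). Otx2, of the forebrain and midbrain, read 550, 555 and 608 in Mof and 832, 987 and 777 in the Kansl2-labelled libraries (-0.59 ± 0.10, adjusted p = 0.00196). En2, of the midbrain and rostral hindbrain, read 132 to 139.2 in Cre, 130, 165 and 185 in Mof and 204.2, 266 and 255 in the Kansl2-labelled libraries (-0.60 ± 0.13, adjusted p = 0.00889), and did not pass without M643 (-0.46). Irx2, also expressed caudal to the telencephalon, differed by -0.40 ± 0.09 (adjusted p = 0.00967), and by -0.34 and -0.29, not passed, with the Xist term and in the Y-positive libraries.

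Emx1, of the telencephalon, ran the other way. It read 377 to 379 in Cre, 581, 629 and 543 in Mof and 443, 397 and 507 in the Kansl2-labelled libraries (0.38 ± 0.09, adjusted p = 0.0124). The Mof values were above all others, and the Kansl2-labelled values lay between them and the controls without overlap. Emx1 did not pass without M646 (0.33) or K2_348 (0.30), with the Xist term (0.29) or in the Y-positive libraries alone (0.20).

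Several genes of excitatory neurogenesis, the making of cortical projection neurons, were higher in Mof. Of 17 tested genes 5 were higher in Mof (5.88% of all genes) and 1, Cux1, in the Kansl2-labelled libraries (3.96%), with a median of 0.18. Leaving out a library gave 4 to 8 higher in Mof, and library totals gave 1 (median 0.10). Neurod2, a proneural factor of these neurons, read 1482 to 1761 in Cre, 2195 to 2349 in Mof and 1135 to 1625 in the Kansl2-labelled libraries (0.67 ± 0.10, adjusted p = 0.000818). Its relative Neurod6 read 1330 to 1780 in Cre, 2171 to 2274 in Mof and 1194 to 1758 in the Kansl2-labelled libraries (0.55 ± 0.11, adjusted p = 0.00604; 0.36, not passed, with the Xist term). In both the Kansl2-labelled values overlapped the controls and K2_348 was the lowest knockout library. The list's median was 0.06 with the Xist term, with 2 genes higher in Mof, and 0.03 in the Y-positive libraries, with 3 higher in Mof and 2 in K2_351.

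Nfix and Nfib, nuclear factor I genes that time the switch from neurogenesis to gliogenesis, were higher in Mof too. Nfix read 539, 701 and 779 in Cre, 1300, 1445 and 1607 in Mof and 817, 491 and 982 in the Kansl2-labelled libraries (0.98 ± 0.17, adjusted p = 0.00229). Nfib read 4447 to 6114 in Cre, 8473 to 9347 in Mof and 4628 to 6296 in the Kansl2-labelled libraries (0.65 ± 0.11, adjusted p = 0.00196). Nfib belongs to the list of the astroglial lineage. Of its 9 tested genes 2 were higher in Mof (5.88% of all genes) and 1, Id3 (-0.41, adjusted p = 0.0481), in the Kansl2-labelled libraries (3.96%). The median of that list was -0.13. For Nfix and Nfib the Mof libraries lay above every other library and K2_348 was the lowest of its group. The list of postmitotic neurons had a median of 0.01. Of its 19 tested genes 1 was higher in Mof (5.88% of all genes) and 2 in the Kansl2-labelled libraries (3.96%). Dcx, the microtubule protein of migrating young neurons, was higher in Mof (0.36 ± 0.08, adjusted p = 0.00762; 0.33, not passed, with the Xist term). Nefl, the light neurofilament of axons, was higher in the Kansl2-labelled libraries (722, 794 and 560 against 451 to 501; -0.51 ± 0.10, adjusted p = 0.00528). Nefl did not pass with the Xist term (-0.32) or in the Y-positive libraries alone (-0.23), where K2_351 holds its lowest Kansl2-labelled value.

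**Figure D4:**
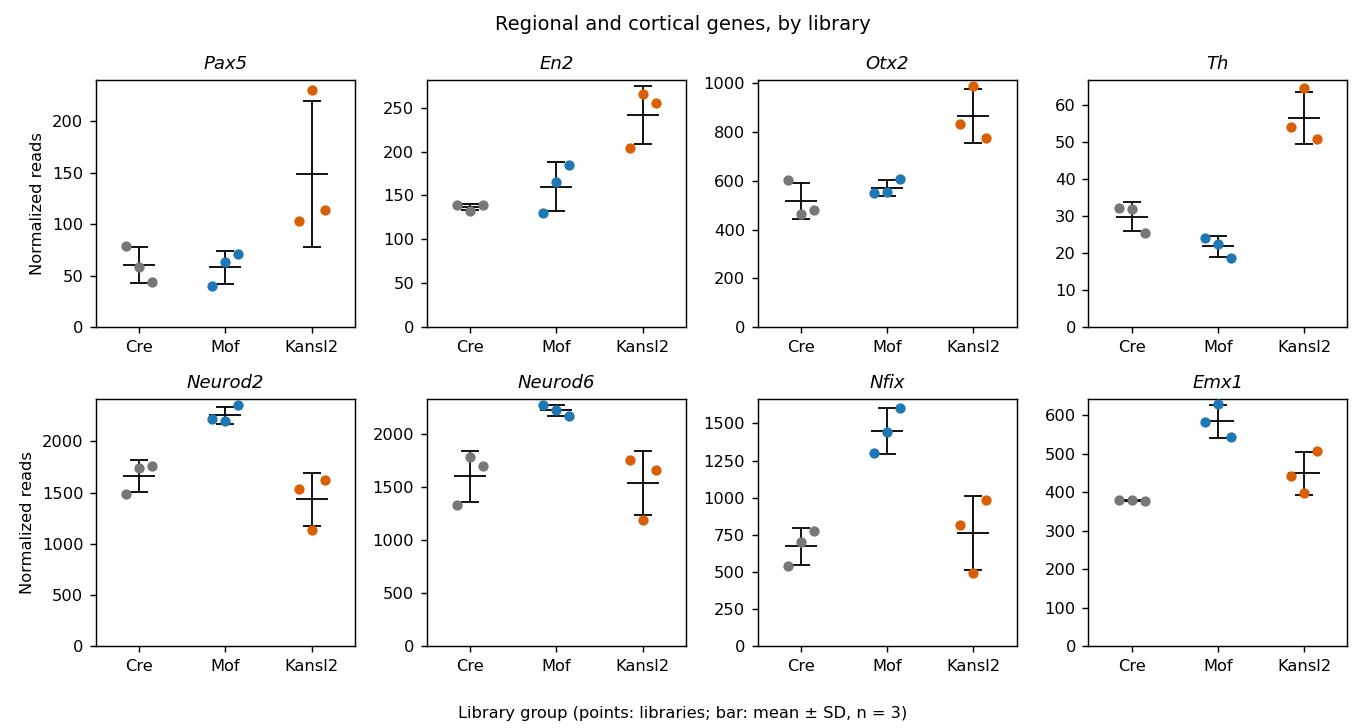
Normalized reads of 8 regional and cortical genes in each neural library (points) with mean and SD (n = 3). The upper row (Pax5, En2, Otx2 and Th) is highest in the Kansl2-labelled libraries and the lower row (Neurod2, Neurod6, Nfix and Emx1) is highest in Mof, with K2_348 at the far end of its group for Pax5 (231) and Nfix (491).

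Monoamine neurons make dopamine, noradrenaline and serotonin in the midbrain and hindbrain. Of 8 tested markers 4 were higher in the Kansl2-labelled libraries (3.96% of all genes) and none in Mof (5.88%), and all 8 lay below 0 (median -0.62). En1 and En2 are on both this list and that of regional patterning, and En2 is counted as higher in both. With the Xist term 2 passed and with library totals 1, and the median in the Y-positive libraries was -0.63. Th, tyrosine hydroxylase, read 32.3, 31.9 and 25.5 in Cre, 24.2, 22.6 and 18.7 in Mof and 54.1, 64.6 and 51.0 in the Kansl2-labelled libraries (-1.34 ± 0.22, adjusted p = 0.00183). The Mof values lay below the controls and the Kansl2-labelled values above them. Slc18a2, the vesicular monoamine transporter, was lower than Cre in both, at 220 to 262 in Cre, 66.0 to 70.6 in Mof and 98.2 to 124 in the Kansl2-labelled libraries (-0.64 ± 0.13, adjusted p = 0.00631). Neither gene passed in the Y-positive libraries alone (-1.20 and -0.57), nor Slc18a2 with the Xist term (-0.58). Pou4f1, a sensory and midbrain factor from the list of neural crest and peripheral neurons, read 194 to 207 in Mof and 325 to 384 in the Kansl2-labelled libraries (-0.79 ± 0.11, adjusted p = 0.000524). The 10 markers of that list summed to 0.00439% to 0.00466% of reads in Mof and 0.00642% to 0.00772% in the Kansl2-labelled libraries. Pou4f1 itself held most of these reads, so this share mainly repeats that gene. Choroid plexus markers took 0.00965% to 0.0104% and 0.0136% to 0.0168%, with K2_348 the highest. Most of these reads were of Otx2, which is also on the regional list, so this share mainly repeats that gene. Fibroblast and meningeal markers took 0.00137% to 0.00154% and 0.00159% to 0.0018%. The part of neural crest, choroid plexus and meningeal cells in the regional and monoamine results was not tested.

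A small number of inhibitory lineage genes was higher there too. Of 25 tested genes 3 were higher in the Kansl2-labelled libraries (3.96% of all genes) and none in Mof (5.88%), with a median of -0.32. With the Xist term 2 passed, and none with library totals. The median in the Y-positive libraries was -0.41. Gad1, the enzyme that makes GABA, read 769 to 856 in Cre, 521, 509 and 509 in Mof and 732, 773 and 623 in the Kansl2-labelled libraries (-0.46 ± 0.08, adjusted p = 0.00259; -0.28, not passed, in the Y-positive libraries). The Kansl2-labelled values overlapped the controls and the Mof values lay below them. Ebf1, of striatal and midbrain neurons, read 202.96 to 223 in Mof and 266 to 317 in the Kansl2-labelled libraries (-0.44 ± 0.10, adjusted p = 0.00889), and did not pass without M646 (-0.39). Summed over its markers, the inhibitory list took 0.152% to 0.158% of reads in Cre, 0.110% to 0.115% in Mof and 0.119% to 0.123% in the Kansl2-labelled libraries. The excitatory list took 0.187% to 0.204%, 0.225% to 0.229% and 0.169% to 0.214% in the same order. In neither list did the Mof and Kansl2-labelled ranges overlap, and each gave an exact two-sided permutation p of 0.1, the smallest that 3 against 3 allows. Several others of the 21 measures compared did not overlap either. Among them were the markers of the astroglial lineage, monoamine neurons, regional patterning, choroid plexus, fibroblasts and neural crest. Some of these lists share genes, such as Otx2 and En2.

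Few cell cycle genes differed between the knockouts. None of 24 genes of replication licensing and S phase passed and their median was -0.06. Against Cre, 16 of them had passed as higher in Mof (16% of all genes) and 18 in the Kansl2-labelled libraries (21.7%). Of 22 mitosis genes 2 were higher in the Kansl2-labelled libraries (3.96% of all genes), with a median of -0.08. Cholesterol synthesis gave none of 24, with a median of 0.01, and the hypoxia response none of 13, with a median of 0.04. Of 19 radial glia and progenitor genes 3 were higher in the Kansl2-labelled libraries (3.96% of all genes) and 1 in Mof (5.88%), with a median of -0.05.

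Outside the lists, the largest differences towards Mof belonged to genes of varied function. Snord17, a small nucleolar RNA that guides ribosomal RNA modification, read 69.2, 52.2 and 61.0 in Cre, 355, 311 and 302 in Mof and 171, 116 and 54.4 in the Kansl2-labelled libraries. The Mof values were tight, and the Kansl2-labelled values spread from above the controls down to their level (1.64 ± 0.25, adjusted p = 0.00091). Car14, a membrane carbonic anhydrase, read 50.2 to 68.6 in Cre, 138.6, 158 and 156 in Mof and 57.2 to 71.6 in the Kansl2-labelled libraries (1.18 ± 0.16, adjusted p = 0.000472). Rhof, a small GTPase of filopodia, read 36.3 to 47.7 in Cre, 113, 117.3 and 117.3 in Mof and 51.7 to 69.8 in the Kansl2-labelled libraries (0.98 ± 0.18, adjusted p = 0.00261; 0.72, not passed, in the Y-positive libraries). These 3 genes were higher in Mof than in every control.

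Another 4 genes stood higher in Mof with both knockouts below Cre and the Kansl2-labelled libraries further below it. Mzt2, a partner of the gamma-tubulin ring complex, read 111 to 136 in Cre, 67.5 to 98.7 in Mof and 36.9 to 38.6 in the Kansl2-labelled libraries (1.05 ± 0.17, adjusted p = 0.00145). Dhrs1, a short-chain dehydrogenase, read 210 to 212, 91.4 to 130 and 46.1 to 62.9 in the same order (1.04 ± 0.16, adjusted p = 0.00077). Cyp4f16, a cytochrome P450 of lipid hydroxylation, read 141.97 to 151, 62.3 to 90.2 and 25.2 to 39.7 (1.04 ± 0.19, adjusted p = 0.00334). Glb1l, a relative of the lysosomal galactosidase, differed by 0.997 ± 0.17 (adjusted p = 0.00224). None of these 4 lost its call when any library was left out. Ccdc80, a secreted matrix protein, was not below Cre in Mof. It read 30.9 to 70.3 in Cre, 70.6 to 101 in Mof and 22.1 to 49.7 in the Kansl2-labelled libraries. Ccdc80 differed by 1.25 ± 0.29 (adjusted p = 0.0118) and did not pass without M643 (1.19), M646 (1.15) or K2_348 (0.90), nor with the Xist term (0.75). Mpv17l2, a mitochondrial inner membrane protein, differed by 0.97 ± 0.25 (adjusted p = 0.0174) and did not pass without M646 (0.92) or K2_348 (0.62), nor with the Xist term (0.82).

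Other large differences towards the Kansl2-labelled libraries, outside the lists, were also of genes of varied function. Zfp503, a zinc finger factor of the developing striatum, read 99.5 to 132 in Cre, 68.2, 64.8 and 63.3 in Mof and 150, 151 and 131 in the Kansl2-labelled libraries (-1.12 ± 0.14, adjusted p = 0.000299). Dlk1, an imprinted Notch-related ligand, read 97.3 to 141.2 in Cre, 97.3 to 129 in Mof and 181 to 262 in the Kansl2-labelled libraries (-1.03 ± 0.16, adjusted p = 0.00091). Adamts20, a matrix protease, read 78.0 to 89.6, 80.3 to 87.2 and 148 to 202 in the same order (-1.02 ± 0.14, adjusted p = 0.000483). For Adamts20 the Mof values lay within the range of the controls, and for Dlk1 they overlapped it.

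Chrna4, a nicotinic acetylcholine receptor subunit, read 118 to 168 in Cre, 70.5 to 96.6 in Mof and 160 to 197.5 in the Kansl2-labelled libraries (-1.02 ± 0.16, adjusted p = 0.000885). Wscd2, a sulfotransferase-like protein, read 69.5 to 88.1, 39.5 to 60.2 and 79.6 to 114 (-1.004 ± 0.19, adjusted p = 0.0035; -0.74 with the Xist term and -0.68 in the Y-positive libraries, not passed). Zbtb46, a zinc finger repressor, differed by -1.02 ± 0.24 (adjusted p = 0.0122) and did not pass without M646 (-0.65) or K2_348 (-0.87), nor with the Xist term (-0.87) or in the Y-positive libraries (-0.95). In Chrna4, Wscd2 and Zbtb46 the Mof group was the one below Cre.

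Promoter sequences of the genes higher in Mof were searched for 8 motifs on both strands, in the RefSeq windows named above, which cover 80.5% of the tested protein-coding genes and 83.1% of those higher in Mof. They cover 79.6% of those higher in the Kansl2-labelled libraries, and the motif shares of that group are not reported here. The motifs were chosen after the differences were known, so the shares are a description with no test. The element of THAP11 and ZNF143, spelled ACTACA, then any 2 bases, then TCCC, was present in 67 of 608 genes higher in Mof (11.0%) and in 472 of all 9606 (4.91%). The ETS element CCGGAAGT was present in 13.5% and 9.27%. Shares were closer for the core of the NRF1 element CGCATGCG (4.44% and 4.56%), the YY1 element AAGATGGCG (3.29% and 3.67%), the cyclic AMP element TGACGTCA (4.61% and 3.86%), CCAAT (47.5% and 43.6%) and TATAAA (7.40% and 8.04%), and were 3.95% and 2.52% for TGATGNAA. None of these motifs holds another whole.

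Over all 472 genes with the THAP11 and ZNF143 element the median difference was 0.09 against 0.01 for the 9606, and 14.2% of them were higher in Mof against 6.33%. Against the shared controls their medians were -0.14 in Mof and -0.22 in the Kansl2-labelled libraries. The stretches below are from 4 genes with the element that were among the larger differences towards Mof, chosen after their values were seen. Calcoco1 holds another match further from the start site, outside its stretch. Capitals mark the element or its reverse complement, and each stretch ends before the start site.
Adck1, chr12:88360441-88360513, plus strand: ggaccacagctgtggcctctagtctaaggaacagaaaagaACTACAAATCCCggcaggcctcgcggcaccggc
Zfp65, chr13:67729174-67729231, minus strand: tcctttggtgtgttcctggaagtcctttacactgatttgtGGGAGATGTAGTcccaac
Sh3bgrl2, chr9:83548209-83548300, plus strand: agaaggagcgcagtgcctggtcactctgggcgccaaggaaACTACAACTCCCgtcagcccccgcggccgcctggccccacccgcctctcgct
Calcoco1, chr15:102722179-102722247, minus strand: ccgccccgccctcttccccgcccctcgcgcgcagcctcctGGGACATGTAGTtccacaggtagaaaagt
Adck1, a mitochondrial kinase-like protein, read 154 to 181 in Cre, 93.0 to 100.1 in Mof and 43.0 to 60.7 in the Kansl2-labelled libraries (0.87 ± 0.15, adjusted p = 0.00233). Zfp65, a zinc finger protein, read 190 to 217 in Mof and 103 to 122 in the Kansl2-labelled libraries (0.82 ± 0.11, adjusted p = 0.000472). Calcoco1, a selective autophagy receptor, differed by 0.64 ± 0.12 (adjusted p = 0.00295) and Sh3bgrl2 by 0.65 ± 0.14 (adjusted p = 0.00834). Neither of the last 2 passed in the Y-positive libraries alone (0.40 and 0.39), nor Sh3bgrl2 with the Xist term (0.37).

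Whole brains of the same genotypes gave an independent set of libraries, 3 per group at E14.5, tested with edgeR on raw counts. There 841 of 16017 genes differed (5.25%), 438 (2.73%) higher in Mof and 403 (2.52%) higher in the Kansl2-labelled brains. Leaving out K2_63 gave 209 and leaving out K2_68 gave 1196. The other 4 fits of this kind gave 205 (without Mof_197), 302 (Mof_193), 360 (K2_70) and 740 (Mof_200). Across 13196 genes in both tables, the neural and whole-brain differences had a Pearson r of 0.42, a description across genes that share libraries. Of 1333 neural genes that passed and were also tested in whole brain, 1173 had the same sign there, 88.0% against 65.9% of all genes. A total of 244 genes passed in both with the same sign and 4 with opposite signs, together 18.6% of the neural and 34.1% of the whole-brain calls.

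Some stress genes were higher in the Kansl2-labelled brains too. There 9 of 14 tested p53 targets of cell death (2.52% of all genes passed in that direction) and 6 of 21 of arrest and feedback were higher, with medians of -0.85 and -0.17, as were 7 of 26 genes of the integrated stress response. None of 20 genes of the unfolded protein response passed (median -0.08). Sesn2, counted in both the arrest and the stress response lists, differed by -1.49 ± 0.14 (adjusted p = 0.000764). Cdkn1a differed by -1.41 ± 0.16 (adjusted p = 0.00142) and Atf3 by -1.43 ± 0.30 (adjusted p = 0.0203). On the Mof side (2.73% of all genes) 12 of 75 mitochondrial ribosomal protein genes and 10 of 36 cilium genes were higher, with medians of 0.26 and 0.29. Mrpl11 differed by 0.82 ± 0.16 (adjusted p = 0.0158), Bbs1 by 0.57 ± 0.10 (adjusted p = 0.013) and Zfp65 by 1.02 ± 0.12 (adjusted p = 0.00177).

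Regional and cortical genes did not pass in whole brain. Of 23 tested genes of regional patterning none passed, although the median was -0.34, and none of 17 excitatory genes passed (median 0.07). The inhibitory list had a median of 0.35, opposite in sign to neural cells. Of its 25 genes 1 was higher in Mof (2.73% of all genes) and none in the Kansl2-labelled brains (2.52%). Pax5 stood at -0.62 ± 0.49 (adjusted p = 0.473) and Neurod2 at 0.29 ± 0.20 (adjusted p = 0.391). Neither gene passed the test of the difference between neural cells and whole brain (limma adjusted p = 0.972 and 0.675). Kat8 differed by -0.30 ± 0.15 in whole brain (adjusted p = 0.244). Microglial markers moved with genotype there, at 0.00737% to 0.00928% of reads in Mof and 0.0147% to 0.0233% in the Kansl2-labelled brains. Of 13 tested, 12 were higher in the Kansl2-labelled brains (2.52% of all genes). K2_63 held the highest shares of choroid plexus and fibroblast markers, 0.0395% choroid plexus and 0.0283% fibroblast marker reads. The part of these markers in the whole-brain differences was not tested. In neural cells the microglial share was 0.000469% to 0.000835% in Mof and 0.000414% to 0.000727% in the Kansl2-labelled libraries.

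**Figure D5:**
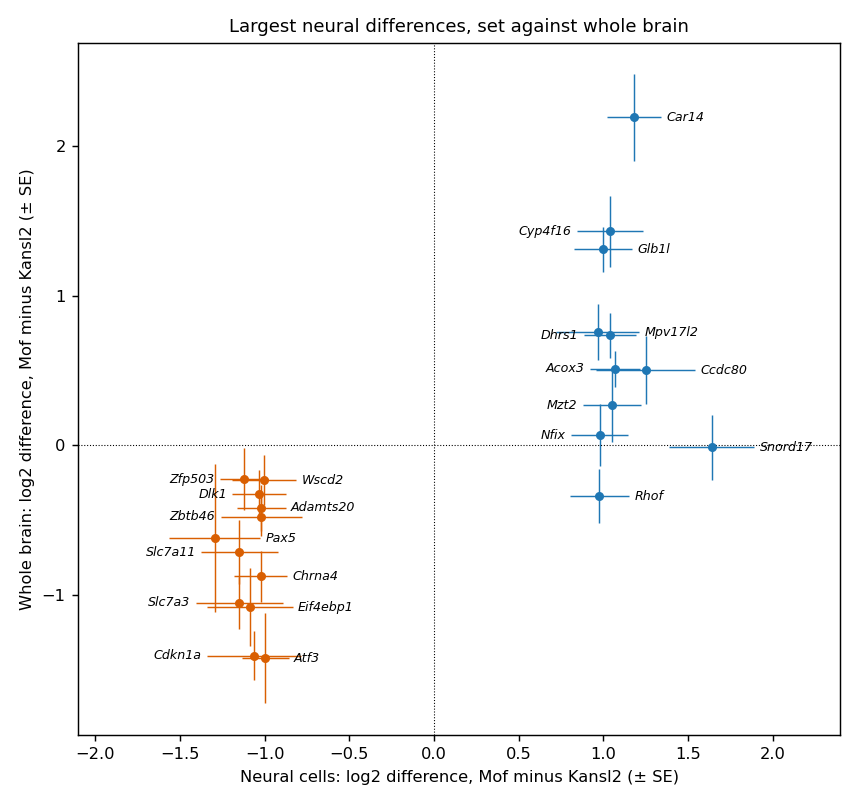
Differences (log2, Mof minus Kansl2, ± SE) of 23 genes with the largest named neural differences, in neural cells (limma, horizontal axis) and in whole brain (edgeR, vertical axis); blue genes are higher in Mof and orange genes higher in Kansl2-labelled neural cells. All 12 orange genes lie below 0 in whole brain, and of the blue genes Car14 is highest (2.19) while Rhof (-0.34) and Snord17 (-0.01) lie below 0.

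A direct test over 12 libraries asked which genes differed between knockouts by a different amount in neural cells and in whole brain. It called 4 of 14514 genes (0.0276%), and 1215 had an unadjusted p under 0.05; edgeR also called 4. They were Apoe, Ctsd, Tnc and PISD. Apoe, the lipoprotein of astroglia and microglia, was higher in Mof in neural cells, at 83.6, 80.3 and 83.1 against 48.6, 60.9 and 48.7. That neural call was lost without M643 (0.63), M646 (0.66) or K2_345 (0.59), with the Xist term (0.73), in the Y-positive libraries (0.75) and with library totals (0.56). In whole brain Apoe was lower in Mof, at 339.3 ± 22.8 against 1033 ± 355 (mean ± SD, n = 3). Ctsd, Tnc and PISD also had differences of opposite or unequal size in the tissues.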

How the data were processed

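RNA was sequenced from sorted neural cells and whole brains of mouse embryos at E14.5, with TruSeq libraries, per the labels. Per the submitters' processing notes STAR, featureCounts, DESeq2 and mm10 were used, without versions. The deposited neural tables hold a signal, gene counts that the authors divided by a size factor for each library, and the deposited whole-brain table holds raw counts. Dividing each neural column by its value of 1 read gave whole reads for 100% of values (within 0.01). Gene symbols are the authors' own. The Cre columns were identical in both neural tables.

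Reads of the 9 neural libraries were scaled together by median-of-ratios size factors. limma 3.58.1 (trend) was fitted to log2(normalized reads + 1) where a gene's mean reached 10, with all 3 groups in 1 fit. This scale understates differences of low genes. Whole-brain counts were tested with edgeR 4.0.16 (TMM, quasi-likelihood, 9 libraries), and the difference between tissues with limma over 12 libraries. Adjustment was by Benjamini-Hochberg, with a gene passing below 0.05. Shares of reads were compared over 21 measures by exact permutation tests. Scripts were tested on simulated data. DESeq2 1.42.0 served as an alternative; R was 4.3.3, Python 3.11.15, pandas 2.3.3, numpy 2.4.6 and matplotlib 3.10.9.

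The comparison, the 40 gene lists and the tests were chosen with earlier results of these data known. The named genes were Kat8, Kansl2 and Kansl3; the 12 largest differences in each direction among genes that passed, had a mean of at least 50 over the knockout libraries and did not overlap, without predicted and unnamed genes and the 6 of the list of sex-linked genes; and up to 4 members per list with the smallest p. Not every such gene is printed, and some are not reported here. Other genes in the text (further list members, the promoter genes and the genes of the tissue difference) were chosen after their values were seen. Promoter windows come from RefSeq.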

Additional observations from a re-analysis of the deposited data

Results flagged for a closer look

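The Mof minus Kansl2 difference was not equal in neural cells and whole brain for 4 genes, by the test of the difference between tissues (limma over 12 libraries, neural minus whole brain). For Apoe it was 2.23 ± 0.25 (adjusted p = 0.00133), with 0.61 in neural cells and -1.61 in whole brain in that fit. Neural Apoe was higher in each of 3 Mof libraries than in any Kansl2-labelled one, and its neural call alone did not hold under every alternative. Ctsd, the lysosomal protease cathepsin D, gave 1.11 ± 0.16 (adjusted p = 0.0133). Its normalized reads were 396, 424 and 378 in Mof and 345.5, 375 and 355.5 in the Kansl2-labelled neural libraries, and 1305 ± 65.4 against 2504 ± 431.9 in whole brain. Tnc, the matrix protein tenascin C of radial glia, gave 1.498 ± 0.23 (adjusted p = 0.0238), with 1142, 1146 and 1001 against 790, 710 and 857 in neural cells and 1012 ± 172 against 2048 ± 620 in whole brain. PISD, the mitochondrial phosphatidylserine decarboxylase, gave -2.46 ± 0.36 (adjusted p = 0.0149), with 943, 1312 and 880 against 691, 618 and 767 in neural cells and 5940 ± 828 against 772 ± 432.2 in whole brain. This gene has near-identical copies in the mouse genome, so its reads are uncertain. Of 13 microglial markers, which include lysosomal and lipid genes, 12 were higher in Kansl2-labelled whole brains (2.52% of all genes). Their part in these differences was not tested.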

How the results depend on the processing

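No paired analysis was possible because the replicate numbers in the labels are library names and the groups compared share none. Of 13682 genes tested in neural cells 1346 passed, 59.7% of them higher in Mof. edgeR on the recovered reads gave 1191 (65.2% higher in Mof), DESeq2 842 (59.0%), TMM 1219 (54.6%), only the 6 knockout libraries 806 (55.8%), no filter on low values 978 (60.5%), and scaling to library totals 101 (35.6%). That last scaling moved the median of all genes to -0.07, and totals without Rn18s-rs5 gave 1324 (63.7%). A term for Xist gave 440 (59.1%). Leaving out 1 library gave 559 (M646) to 1425 (K2_351), and 662 without M643 and 778 without K2_348. In whole brain, where 841 passed, no filter on low counts gave 1820, and leaving out a library 205 to 1196. Leaving out a library gave 1 to 9 genes for the difference between tissues. Of 69 named genes that passed, none reversed under these alternatives. Library totals left 29 of them past the threshold, the Xist term 42, the Y-positive libraries 47, and leaving out a library 52 to 68. Totals without Rn18s-rs5, the Xist term and the Y-positive libraries were alternatives chosen after seeing the data. Values near 0 changed sign: Kansl2 was -0.0047 in the Y-positive libraries, and Atf4 was -0.0090 with TMM, -0.074 with library totals, -0.0032 with only the knockout libraries, -0.032 with the Xist term, -0.057 in the Y-positive libraries and -0.044 to 0.071 when a library was left out. The causes were not tested. Depth limits genes of low level, and 3 libraries per group limit every test.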
